A study of Mus musculus with 64 samples.

Results

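Transposon insertions were compared between B cell lymphomas taken from lymph nodes outside the mesentery and B cell lymphomas taken from mesenteric lymph nodes of mice that carried the PiggyBac (PB) system. The samples were chosen by their tissue label: 9 peripheral samples (5 labelled LN, 1 CERV LN, 1 CERV MASS, 1 LN THROAT and 1 THOR LN) and 6 mesenteric samples (all labelled MES LN), 15 of the 64 samples of the series and 15 of its 30 PB tumours. All 15 carry the genotype label IMPB, which stands here for mice of the PB ITP cohort: a PB transposase knocked into the Rosa26 locus, active in every tissue, and an array of ITP transposons, with C57BL/6, 129Sv and FVB mixed in their background. The Blm m3 allele is described for crosses of the other transposon system, and whether these PB mice carried it is not given in the sources used here, nor is any treatment. Each sample came from a different mouse, and the ages were not analysed here. The label LN names no site, so that 5 of the 9 peripheral samples are peripheral only in that the label does not say mesenteric, the cervical mass may not be a node, and the thoracic node lies inside the chest. Within each group the samples are numbered from 1, without order or pairing. Peripheral node 1 is the cervical mass, 3 the cervical node, 7 the throat node and 8 the thoracic node. No RNA was measured, so that the B cell identity of the tissue could not be checked against marker genes, and normal cells of the node contribute DNA to every sample.

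A PB transposon is cut out of its donor array and pasted into the short sequence TTAA elsewhere in the genome. ITP transposons were built to inactivate the gene they land in. In a tumour that grew from a few cells, the insertions of the founding cell are carried by many cells and collect many reads, whereas insertions of late or bystander cells collect few. Peripheral nodes drain the skin, the limbs and the head, and mesenteric nodes drain the gut, with its steady supply of microbial and food antigens and of gut-homing lymphocytes. The comparison asks whether the genes hit, and the dominance of the leading insertions, differ between these sites.

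Among the 10 most covered insertions of a sample, Gna13 appeared in 8 samples, Fas in 6 and Rel in 2. Most other genes found there appeared in 1 sample only. The TTAA positions below are examples from Gna13, Fas and Rel. They are the leading Gna13 insertions of mesenteric nodes and a Gna13 position that 4 node samples share. With them are 2 Fas positions that a peripheral sample shares with another node sample, and the leading Rel insertion of a peripheral node. Each sequence is 30 bases of the plus strand of GRCm38, with the TTAA in capitals and its position before the colon.
Gna13, most covered in mesenteric node 3, chr11:109366422-109366425: agaccaggtagccTTAAactgatagcaacc
Gna13, most covered in mesenteric node 5, chr11:109370024-109370027: ggtgacaggtttaTTAAataagaaagtgat
Gna13, most covered in mesenteric node 6, chr11:109368766-109368769: tcttacattttccTTAAgatgagtgagtgc
Gna13, hit in peripheral nodes 1 and 4 and mesenteric nodes 1 and 4, chr11:109364714-109364717: gatacagatgaacTTAAagaatgaacagac
Fas, hit in peripheral nodes 7 and 8, chr19:34322003-34322006: tctatttggaacaTTAAacacgatagaaat
Fas, hit in peripheral node 3 and mesenteric node 3, chr19:34322617-34322620: caccttactgcttTTAAtattctttctttg
Rel, most covered in peripheral node 3, chr11:23740199-23740202: aaaaaaaaaaaccTTAAacatatggaaaag
All of these lie in introns except the Rel position, which lies in a non-coding part of an exon near the 3′ end of the gene.

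The 15 samples held 82312 insertions, each counted once per sample and TTAA position, with the sex chromosomes and the donor chromosome 14 left out. The reads on these insertions numbered between 61760 and 315376 per peripheral node and between 100657 and 298875 per mesenteric node. No deposited line had fewer than 2 reads. Reads are PCR products without molecular identifiers, so that read shares give an order of dominance, not a count of cells. Sample names were written in a joined form (7 peripheral, 4 mesenteric) or a separated form (2 peripheral, 2 mesenteric). Since the form may mark a batch, it was used as a covariate or a restriction where this is stated. The names also carry a number after IMPB, whose meaning is not given. Several peripheral nodes share a number that no mesenteric node carries. That number entered no test, and any effect of it cannot be fully told apart from the site.

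Peripheral node 9 shared its leading insertions with a tail labelled as another mouse. Of its 50 most covered insertions, 31 were also found in tail 9, and so were 9 of the 10 most covered, there with 4 to 15 reads each. No other pair among the 180 of a node sample and a tail shared more than 1 of the 50. Between node samples, at most 4 of the 50 were found in another sample. The reason was not tested. Without peripheral node 9 the count of genes that passed the edgeR test between the groups, described below, was still 2. The difference in the share of the 10 leading insertions was then -12.3 points in place of -10.7. Without tail 9, 239 genes (1.06%) were called by the selection model described below in the 11 tails left, 220 of them also with all 12, in place of 282.

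Mesenteric nodes were not separated from peripheral nodes by how many insertions they held or by how strongly the leading insertions dominated, since the 2 groups overlapped in each of the 5 measures. Insertions per sample ran from 3085 over a median of 6133 to 9016 in peripheral nodes and from 1542 over 4870.5 to 9447 in mesenteric nodes. The mean difference was 617 insertions more in peripheral nodes (exact two-sided permutation test, p = 0.658, adjusted over the 5 measures 0.665). It rested on mesenteric node 6, which held the fewest insertions (1542), since without that sample the difference was -98.5. With every sample thinned to 61760 reads, peripheral nodes kept 3927 ± 976 insertions (SD, n = 9) and mesenteric nodes 2777 ± 852 (SD, n = 6), which did not pass after adjustment (exact permutation test, p = 0.0342, adjusted p = 0.171).

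The leading insertion took 3.67% ± 1.88 of the reads in peripheral nodes (SD, n = 9) and 6.52% ± 6.96 in mesenteric nodes (SD, n = 6). The single values ran from 1.54% to 6.79% and from 1.18% to 20.1%, and the difference of means did not pass the test (exact permutation test, p = 0.274, adjusted p = 0.456). Mesenteric node 2, at 20.1%, made most of it: without that sample the difference was -0.133 percentage points in place of -2.85. The 10 leading insertions together took 19.1% ± 8.61 of the reads in peripheral nodes (SD, n = 9) and 29.9% ± 17.9 in mesenteric nodes (SD, n = 6; exact permutation test, p = 0.136, adjusted p = 0.456), and -4.52 points remained of the difference of -10.7 without mesenteric node 2. The number of insertions needed to reach 50% of the reads had a median of 52 in peripheral nodes (22 to 667) and of 22 in mesenteric nodes (7 to 158), with means of 172 and 51.8 (exact permutation test, p = 0.231, adjusted p = 0.456). Peripheral node 2, at 667, raised the first mean, and without it the difference of means fell from 120 to 58.2. Tail DNA of the same cohort, which served as control tissue, gave a median of 2.56% of the reads to its 10 leading insertions (1.13% to 10.9%, n = 12), and needed a median of 766.5 insertions (472 to 1825) to reach 50%. Without tail 9 these medians were 2.65% and 753. Gene bodies held 58.6% ± 2.28 of the insertions in peripheral nodes (SD, n = 9) and 59.1% ± 1.96 in mesenteric nodes (SD, n = 6; exact permutation test, p = 0.665, adjusted p = 0.665), against 42.6% of all TTAA sites. In tails, gene bodies held 55.8% ± 1.34 of the insertions (SD, n = 12).

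**Figure D1:**
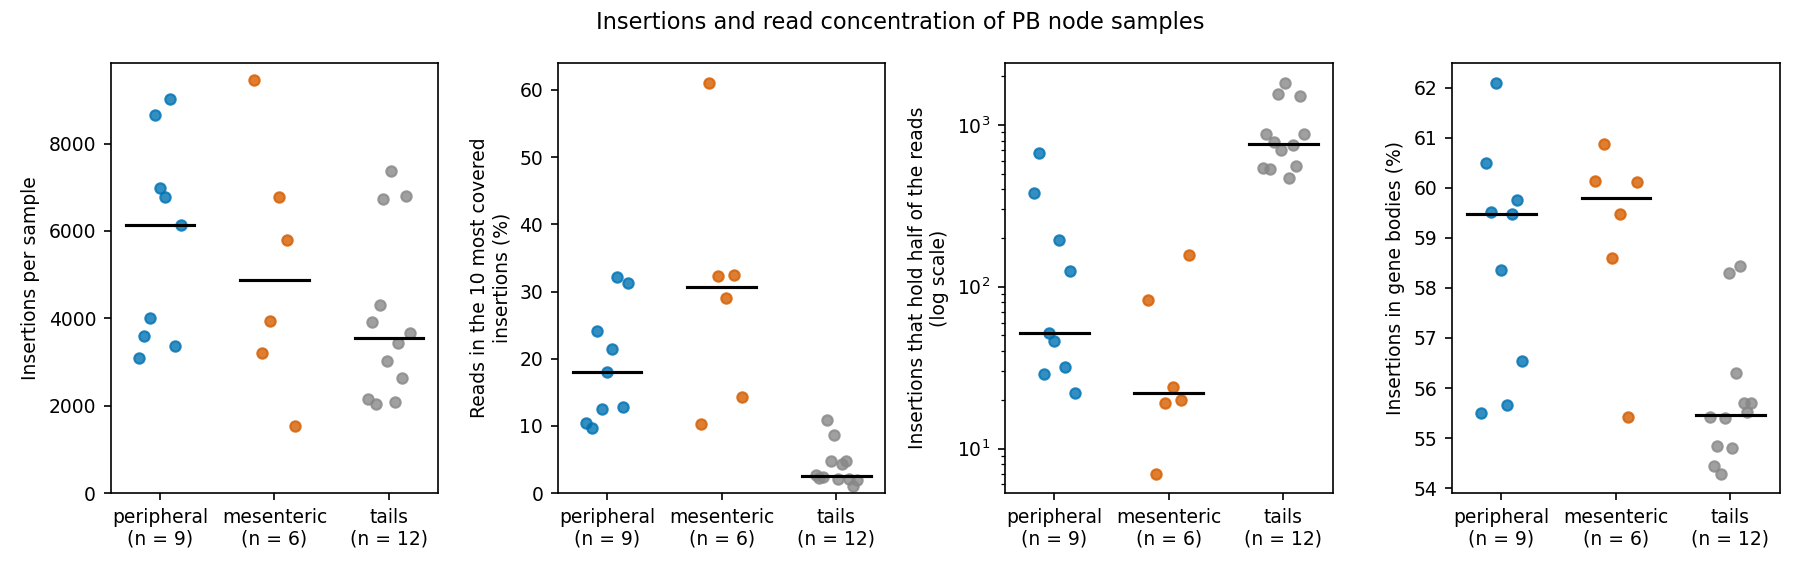
Insertions per sample, share of reads in the 10 most covered insertions (%), number of insertions that reach 50% of the reads (log scale) and share of insertions in gene bodies (%, axis not from 0), with 1 point per sample and a line at the median. Peripheral nodes (n = 9) and mesenteric nodes (n = 6) overlap in every panel, and the medians of the share of the 10 leading insertions are 18.1%, 30.7% and, in tails (n = 12), 2.56%.

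**Figure D2:**
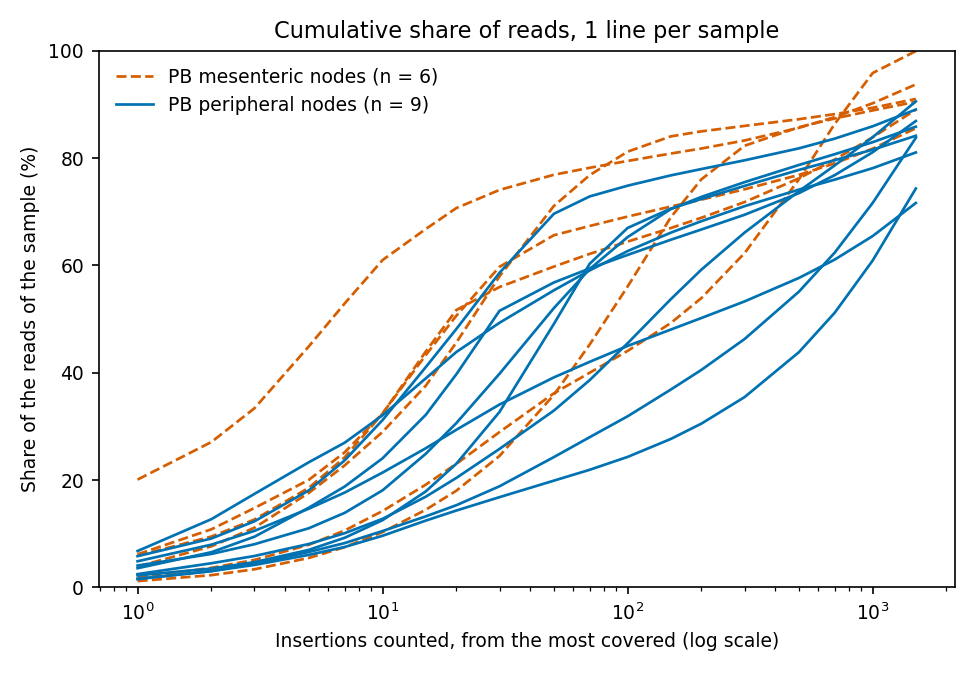
Cumulative share of the reads of a sample (%) against the number of insertions counted from the most covered (log scale), with 1 line per sample, solid for peripheral and dashed for mesenteric nodes. At 50 insertions the peripheral nodes span 19.9% to 69.6% and the mesenteric nodes 35.9% to 76.9%, so that the lines of the groups interleave.

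Gna13 held the most covered insertion of the sample in 3 of 6 mesenteric nodes and in 0 of 9 peripheral nodes, which was not tested. Among the 10 most covered insertions it appeared in 5 of 6 mesenteric and 3 of 9 peripheral nodes. The gene encodes the G protein subunit that relays the signals of sphingosine and lipid receptors which hold germinal centre B cells in place. Gna13 (chr11:109362794-109401369, plus strand, 223 TTAA sites) was hit in all 6 mesenteric nodes and in 8 of 9 peripheral nodes. In mesenteric nodes 1 to 6 its insertions took 1.54%, 0.00199%, 5.96%, 3.78%, 6.19% and 1.90% of the reads. In peripheral nodes 1 to 9 they took 0.0225%, 0%, 2.83%, 2.40%, 2.19%, 0.00216%, 0.0147%, 1.38% and 0.0105%. Of the mesenteric nodes, 5 had over 1% of their reads in Gna13 and 1 had a single insertion of 2 reads, and the peripheral nodes fell into 4 with over 1% and 5 with at most 0.0225%, so that the groups overlapped. In number, Gna13 held 19 insertions in each group, or 3.42 ± 2.34 per 10000 insertions in peripheral nodes (SD, n = 9) and 6.83 ± 3.49 in mesenteric nodes (SD, n = 6), a log2 ratio of -0.75 ± 0.55 (SE, edgeR quasi-likelihood test with Benjamini-Hochberg adjustment, adjusted p = 0.989). Elsewhere in the PB cohort, 7 of 9 mesenteric masses, 3 of 6 spleens and 2 of 12 tails were hit.

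The Gna13 insertions were spread over the gene and showed no fixed orientation. The 11 insertions among the 50 most covered of a sample fell on 11 positions between 1.92 and 26.1 kb from the start of the 38.6 kb gene, all in introns, with 6 in the orientation of the gene and 5 against it as the table lists strands. In mesenteric nodes 1, 3, 4, 5 and 6 the leading Gna13 insertion lay at 15.8, 3.63, 6.58, 7.23 and 5.97 kb, and those of nodes 3, 5 and 6 ran with the gene. The leading ones of peripheral nodes 3, 4 and 5 lay at 25.6, 26.1 and 15.8 kb, and that of peripheral node 8 at 4.04 kb. The distances of the groups overlapped. They were chosen after their values were seen and were not tested. The position at 1.92 kb was found in 4 node samples with 13 to 1344 reads and in no tail.

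**Figure D3:**
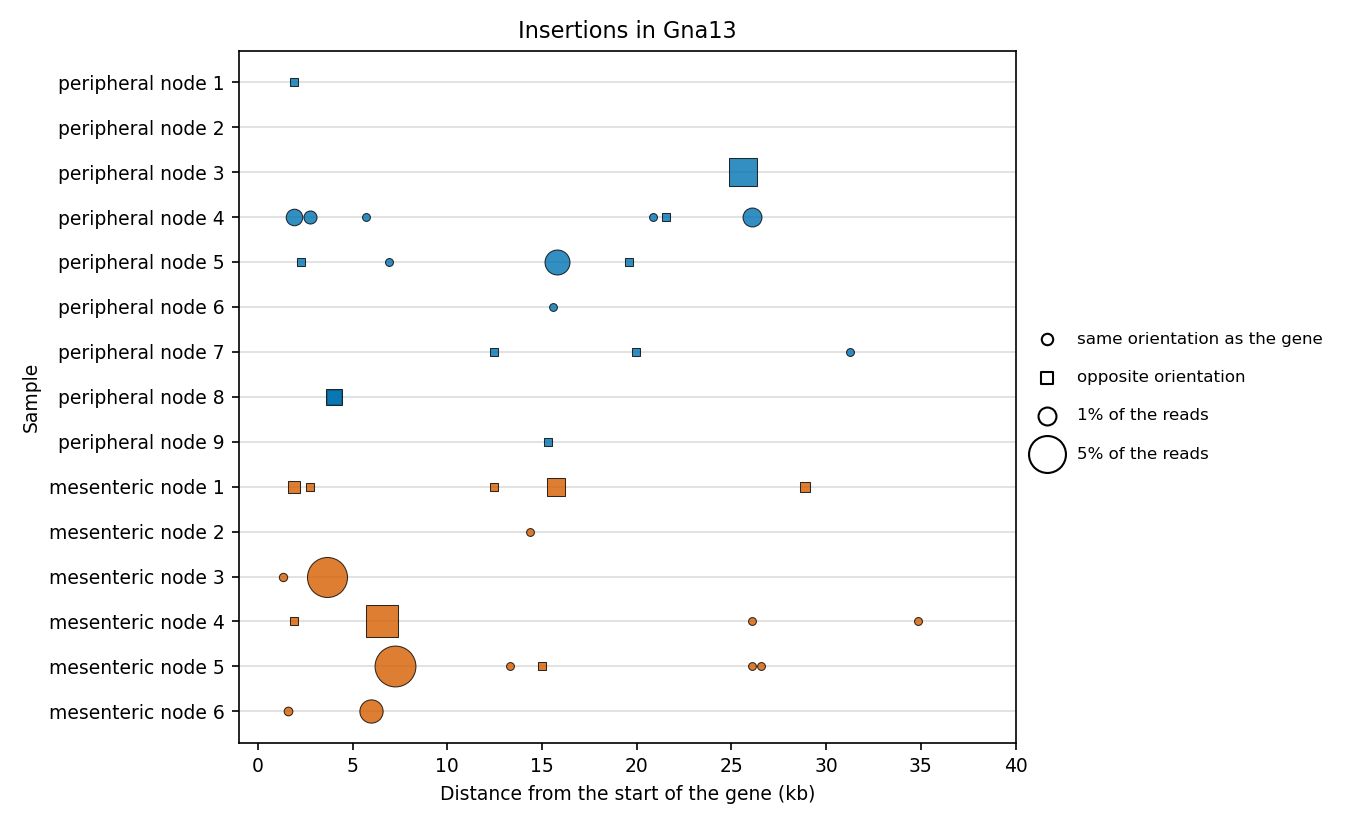
Insertions in Gna13 by distance from the start of the gene (kb), with 1 row per sample (peripheral nodes 1 to 9, then mesenteric nodes 1 to 6), circles for the orientation of the gene, squares for the opposite one, and symbol area growing with the share of reads. The largest symbols, at 5.92% and 6.18% of the reads, belong to mesenteric nodes 3 and 5, and peripheral node 2 has none.

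Fas reached the leading insertions in samples of both groups, and these insertions kept to the far end of the gene. Fas encodes the death receptor through which activated B cells are removed. It was among the 50 most covered insertions in 6 of 9 peripheral and 4 of 6 mesenteric nodes. The 11 insertions concerned lay between 29.1 and 35.6 kb from the start of a gene of 37.1 kb (chr19:34290647-34327775), all in introns, 9 with and 2 against the orientation of the gene. The share of reads in Fas ran from 0% over a median of 1.61% to 3.29% in peripheral nodes and from 0.00199% over 1.20% to 2.99% in mesenteric nodes. Counted as insertions, Fas was hit 32 times in 8 of 9 peripheral nodes and 9 times in 6 of 6 mesenteric nodes, a log2 ratio of 0.996 ± 0.590 (SE, edgeR, p = 0.0913, adjusted p = 0.989). Of the 32, 10 came from peripheral node 5 and 7 from peripheral node 6, while no mesenteric node had more than 2.

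Rel, Malt1 and Ebf1 also held leading insertions in both groups. Rel, a subunit of NF-kB, was among the 50 most covered in 4 peripheral and 1 mesenteric nodes. All 5 of these insertions lay in non-coding exon sequence between 30.3 and 34.0 kb of a gene of 34.1 kb and in the orientation of the gene. Malt1, the protease of the complex that links the B cell receptor to NF-kB, was among them in 2 peripheral and 3 mesenteric nodes, again with all 5 insertions in the orientation of the gene, in introns between 18.6 and 21.3 kb from its start. Ebf1, a transcription factor that commits cells to the B lineage, was among them in 5 peripheral and 2 mesenteric nodes, at 13.7 to 244 kb in a gene of 390 kb. Rel and Malt1 thus shared a narrow stretch and 1 orientation over both sites of disease, while Ebf1 did not.

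A difference between the groups in how often a gene reached the leading insertions passed the test for none of the genes tested. Of the 10 genes that were among the 50 most covered insertions in at least 3 of the 15 samples, 0 (0%) passed the threshold in Fisher's exact test (all adjusted p = 1). The smallest p was that of Gna13, in 4 of 9 against 5 of 6 samples (Fisher's exact test, p = 0.287), and 0 genes had an unadjusted p below 0.05. Counting the 10 most covered insertions, the smallest p was 0.119 (Fisher's exact test, smallest adjusted p = 0.478, 5 genes tested). Over the 10 leading insertions, 74 of 90 in peripheral and 51 of 60 in mesenteric nodes lay in a gene, 69 and 47 of them in introns. The leading insertions of the peripheral nodes were each in a different gene among those named here: Clcn3 (node 1), Dst (node 2), Rel (node 3), Pdss1 (node 4), Actr2 (node 5), Cyrib (node 6), Zfp148 (node 7) and Hnrnpm (node 9). In mesenteric node 4 it lay 2553 bp from Mien1.

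Within each group, genes with more insertions than their TTAA sites predict were called with the selection model of the study in its plain form. This was a one-sided Wald test with Bonferroni correction and at least 3 samples hit. The plain form does not correct for the preference of PB for open chromatin, genes or sequence around the TTAA. The study reports that its full model, which does, called fewer genes in the PB tumours. A call here means an excess over TTAA sites, which insertion preference can also raise. In the peripheral nodes 403 of 22550 genes (1.79%) were called, in the mesenteric nodes 254 (1.13%) and in the 12 tails 282 (1.25%). The node groups held 51607 and 30705 insertions, and the tails a mean of 4010 per sample. Leaving out any 1 sample lowered the count, to 283 to 389 in peripheral and 148 to 237 in mesenteric nodes. How the counts depend on the number of insertions was not tested, and they are no measure of the strength of selection. The test pools the insertions of a group, so that several insertions in 1 mouse count separately. By presence per sample, 66 genes were called in peripheral and 37 in mesenteric nodes. Of the calls, 134 were shared, which is 33.3% of the peripheral and 52.8% of the mesenteric calls, and 10.9% and 11.8% of them were also called in tails. A call in 1 group and not in the other is no difference between the groups.

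Ptprc, which encodes the phosphatase CD45, was hit 67 times in 9 of 9 peripheral nodes, where 3.26 insertions were expected, and 42 times in 6 of 6 mesenteric nodes, where 1.89 were expected, against 1 insertion in 12 tails. Mef2c, a transcription factor of germinal centre B cells, had 47 insertions in 9 of 9 and 57 in 6 of 6 nodes, with 5.96 and 3.71 expected. Of the 57, 28 came from 1 mesenteric node. Ptprc, Mef2c and Elmo1, an adaptor of cell migration, were called in both groups, hit in all 15 samples and not called in tails. Tox, a nuclear factor best known from T cells, had 64 insertions in 8 and 55 in 5 nodes, with 8.29 and 5.06 expected and 4 found in tails, 2 of them in tail 9. A single peripheral node gave 19 of the 64, and a single mesenteric node gave 28 of the 55. Ikzf1 (34 and 16 insertions), Erp44 (36 and 23), Mbnl1 (49 and 28) and Zcchc7 (42 and 35) were called in both groups as well. Mbnl1 had 19 insertions in tails, where it was also called, as were Sfi1 (17) and Hnrnpa2b1 (8), so that these 3 exceeded their TTAA share in tails too, and they were still called without tail 9.

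**Figure D4:**
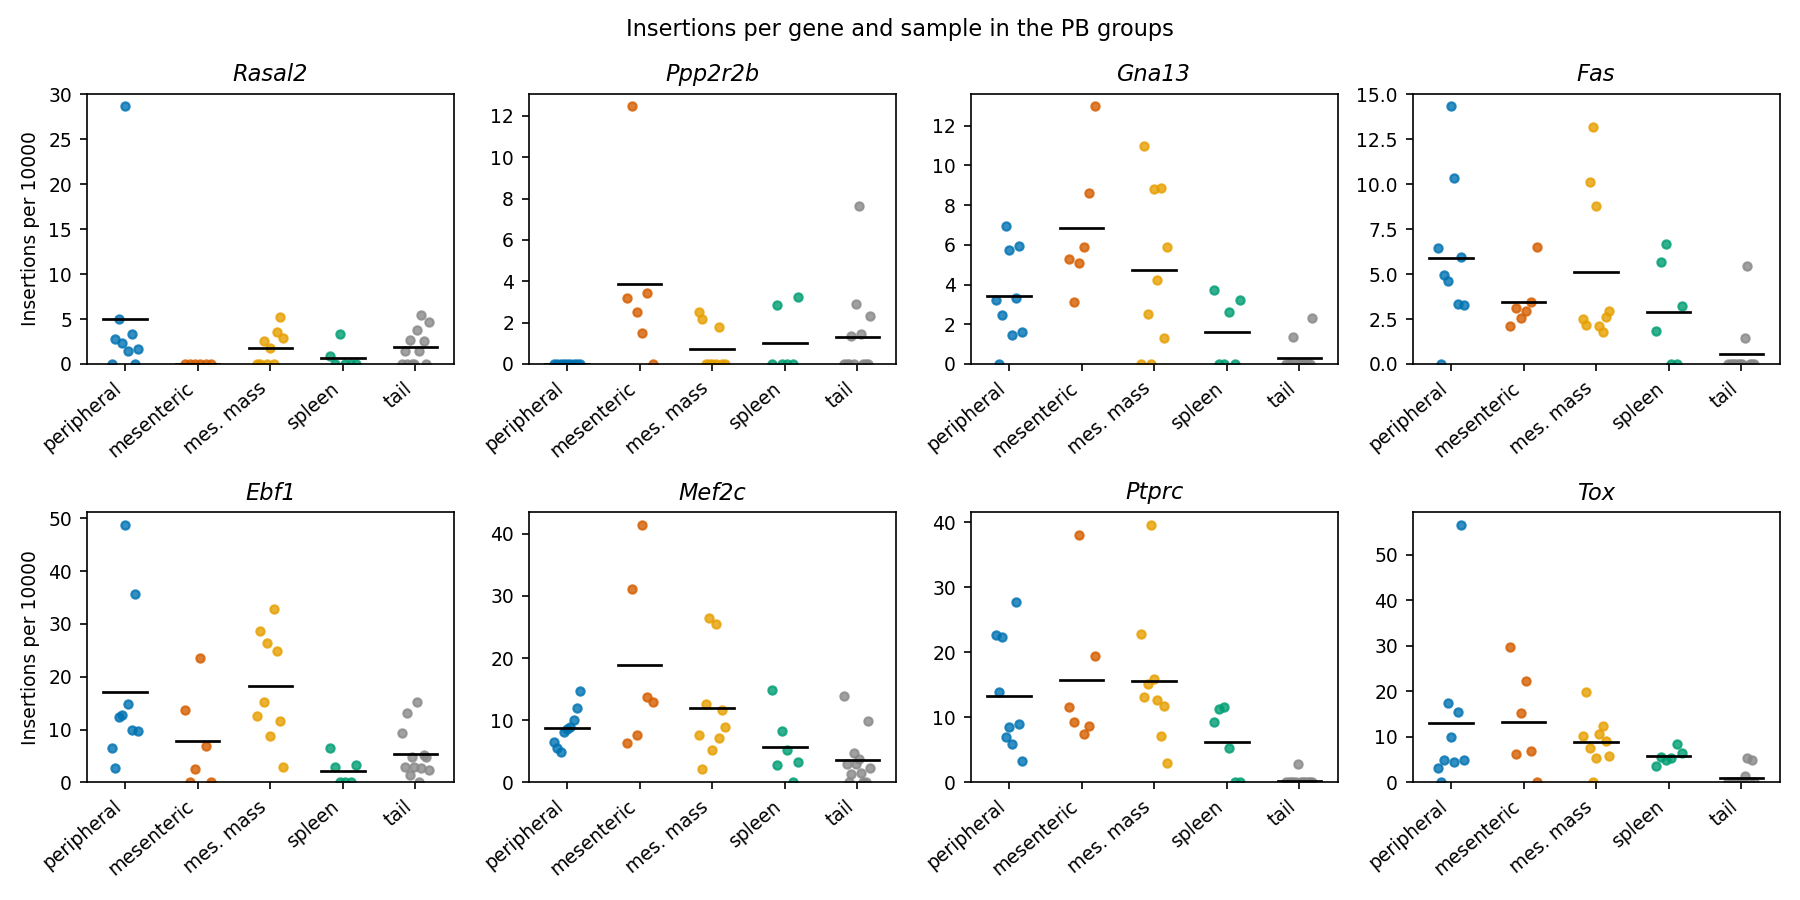
Insertions per 10000 insertions of the sample for 8 genes, with 1 point per sample and a line at the mean, in peripheral nodes (n = 9), mesenteric nodes (n = 6), mesenteric masses (n = 9), spleens (n = 6) and tails (n = 12). Rasal2 is at 0 in the 6 mesenteric nodes and Ppp2r2b at 0 in the 9 peripheral nodes, while Gna13, Fas, Ebf1, Mef2c, Ptprc and Tox are hit in both, with overlapping points.

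Gene by gene, 2 of 1246 genes tested (0.161%) passed the edgeR quasi-likelihood test of insertions per sample between the groups (adjusted p below 0.05). Rasal2 was hit more often in peripheral nodes (1 gene, 0.0803%) and Ppp2r2b more often in mesenteric nodes (1 gene, 0.0803%). Neither was among the leading insertions of any sample. Each was at 0 in the other group, so it reached the minimum of 10 insertions only through the group where it was hit. Without that minimum, 0 of 11053 genes passed (edgeR). Over all genes tested, 634 log2 ratios were above 0 and 612 below, with a median of 0.02, and 35 genes (2.81%) had an unadjusted p below 0.05. DESeq2 on the same counts called 0 genes, with 15 at an unadjusted p below 0.05.

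Rasal2 (chr1:157135183-157412595, minus strand), which encodes a protein that switches off Ras, had 0, 1, 2, 2, 20, 1, 3, 0 and 1 insertions in peripheral nodes 1 to 9 and 0 in each of the 6 mesenteric nodes. Peripheral node 5 thus held 20 of the 30. The pooled peripheral rate was 5.95 times the rate of a floor of 3 insertions over the mesenteric group (edgeR adjusted p = 0.00465, DESeq2 adjusted p = 0.999). This ratio takes the 30 insertions as exact and leaves out the spread between mice, so it is no lower bound. Without peripheral node 5 the ratio was 2.29 and the call was lost (edgeR adjusted p = 0.388). The call was also lost without mesenteric node 1 (edgeR adjusted p = 0.0793) and without the minimum of insertions per gene (edgeR adjusted p = 0.0746). With only the 4 peripheral samples of a named site it had 5 insertions, too few to be tested. The insertions were faint: in peripheral node 5, 18 of the 20 had under 10 reads, the highest 55, and 11 lay within 12.6 kb of each other. In the other PB groups, 5 of 9 mesenteric masses carried 9 insertions in Rasal2, 2 of 6 spleens carried 3, and 7 of 12 tails carried 10. By its TTAA sites, Rasal2 was expected to receive 9.10 insertions in the peripheral and 5.27 in the mesenteric nodes.

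Ppp2r2b (chromosome 18), which encodes a regulatory subunit of the phosphatase PP2A, had 0 insertions in each of the 9 peripheral nodes and 3, 4, 1, 1, 2 and 0 in mesenteric nodes 1 to 6. The pooled mesenteric rate was 6.16 times the rate of a floor of 3 insertions over the peripheral group (edgeR adjusted p = 0.0111, DESeq2 adjusted p = 0.999). As for Rasal2, this ratio leaves out the spread between mice and is no lower bound. The expectation from its TTAA sites was 8.67 insertions in the peripheral and 5.33 in the mesenteric nodes, so that the 11 found were not called by the selection model (Wald test, Bonferroni adjusted p = 1). Their reads ran from 2 to 16, in introns only. Without mesenteric node 1, 2 or 5, Ppp2r2b had too few insertions to be tested, and it was not called without a minimum of insertions per gene (edgeR adjusted p = 0.0746), with only the 4 peripheral samples of a named site (edgeR adjusted p = 0.602) or with only the 5 labelled LN (edgeR adjusted p = 0.166). In the other PB groups it was hit in 3 of 9 mesenteric masses, 2 of 6 spleens and 5 of 12 tails. With insertions of at least 10 reads only, neither gene reached the minimum, and 0 of 146 genes passed (edgeR), with 7 at an unadjusted p below 0.05.

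**Figure D5:**
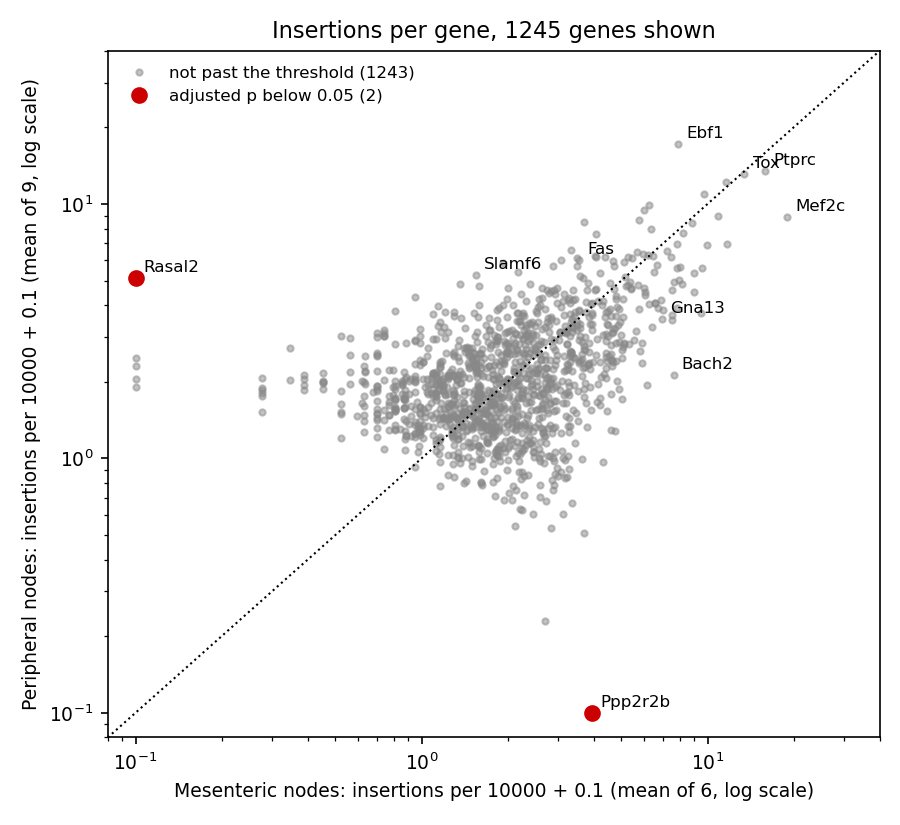
Mean insertions per 10000 insertions of a sample plus 0.1 in mesenteric nodes (n = 6) and peripheral nodes (n = 9), both on log scales, with 1 point per gene (1245 shown of 1246 tested) and a dotted line at equality. Among them only Rasal2 and Ppp2r2b (large points) had an adjusted p below 0.05 (edgeR). Rasal2 lies at 0.1 for mesenteric nodes and Ppp2r2b at 0.1 for peripheral nodes, the value of a gene not hit.

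The genes next in order did not pass, and most of them carried few insertions. On the peripheral side these were Gm13481 (13 against 0 insertions, edgeR adjusted p = 0.507), Ntng1 and Ywhae (11 against 0 each, adjusted p = 0.588), Bclaf1 (10 against 0, adjusted p = 0.618) and Slamf6 (26 against 5, adjusted p = 0.989). Slamf6, a receptor of the SLAM family on lymphocytes, was hit 1, 0, 0, 4, 6, 0, 5, 6 and 4 times in peripheral nodes 1 to 9 and 2, 1, 0, 0, 2 and 0 times in mesenteric nodes 1 to 6. It was called by the selection model in both groups, with 0.686 and 0.398 insertions expected. Rps6ka5, a kinase of chromatin proteins, was hit in 9 of 9 peripheral and 1 of 6 mesenteric nodes (13 against 1 insertions, edgeR adjusted p = 0.989). Tbc1d5 (35 against 8), Tmem135 (26 against 5) and Bbx (31 against 7) completed the 10 on this side (edgeR adjusted p = 0.989 each).

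On the mesenteric side, Tmpo (1 against 10 insertions, edgeR adjusted p = 0.27) came closest, but it had 15 insertions in tails, where it was called by the selection model, as was Syncrip (4 against 11, with 16 in tails). Ptk2, the focal adhesion kinase, was hit 0, 1, 0, 2, 0, 1, 1, 1 and 0 times in peripheral nodes 1 to 9 and 4, 2, 2, 6, 2 and 0 times in mesenteric nodes 1 to 6 (edgeR adjusted p = 0.588). Bach2, a repressor that guides B cells in the germinal centre, had 13 insertions in peripheral and 22 in mesenteric nodes, a log2 ratio of -1.48 ± 0.56 (SE, edgeR adjusted p = 0.989). Sgip1 (2 against 9, adjusted p = 0.783), Dym (3 against 9), Myo1d (4 against 10), Rprd2 (3 against 8) and Rgs13 (4 against 10) followed. Rgs13, a brake on chemokine receptors of germinal centre B cells, had 9 of its 10 mesenteric insertions in mesenteric nodes 1 and 4, which also held the most insertions in all.

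Of the members of 8 lists of genes by function, 0 passed the test between the groups, beside 0.161% of all genes tested. Most members had too few insertions to be tested, and no list was tested as a whole. Of 34 B-lineage transcription factors, 17 had enough insertions to be tested, with a median log2 ratio of -0.34 beside 0.02 for all genes, and 10 of the 17 were below 0. Bach2 (p = 0.00847) and Mef2c (p = 0.0316) had an unadjusted edgeR p below 0.05 among them. The log2 ratio of Mef2c was -1.07, and -0.56 without mesenteric node 4 (edgeR, p = 0.297). Without mesenteric node 2 it was -0.91 (edgeR, p = 0.0808). Together the list took a median of 72.4 per 10000 insertions in peripheral nodes (22.7 to 125), 81.8 in mesenteric nodes (48.2 to 142) and 37.3 in tails (16.4 to 60.3). Of the list, 10 members were called by the selection model in peripheral nodes, 11 in mesenteric nodes, 7 in both and 3 in tails, beside 1.79%, 1.13% and 1.25% of all genes in the 3 kinds of sample. Ebf1, Ikzf1, Ikzf3 and Mef2c were among the 7.

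For the genes of homing, adhesion and confinement to the node, where a difference between sites would bear most directly on location, 10 of 39 were tested, with a median log2 ratio of 0.01 and a range of -1.79 (Rgs13) to 0.54 (Rap1a). The list took a median of 35.8 per 10000 insertions in peripheral and 39.4 in mesenteric nodes, against 11.3 in tails. The selection model called 5 members in peripheral nodes, 7 in mesenteric nodes and 1 in tails, beside 1.79%, 1.13% and 1.25% of all genes. Called in both groups were Gna13, Elmo1, Rap1a, a switch of integrin adhesion, Rhoa, the small GTPase below Gna13, and Cxcr5, the receptor that leads B cells into follicles. Cxcr5 had 7 and 4 insertions, with 0.228 and 0.146 expected. Rgs13 (4 and 10) and St6gal1 (9 and 12) were called in mesenteric nodes, and Dock2 (24 and 13 insertions) in neither.

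The other lists were described in the same way. Of 20 genes of the mucosal signals TGF-beta and retinoic acid and of the switch to IgA, only 3 had enough insertions to be tested, with log2 ratios from -0.63 to 0.38, and 0 of the 20 were called by the selection model. With 1.79% and 1.13% of all genes called, a list of this size is too short for this count to say anything about these genes. Tgfbr2, Smad2, Smad3 and Smad4 had 6, 7, 6 and 6 insertions in peripheral and 5, 3, 2 and 6 in mesenteric nodes. Of 28 NF-kB genes, 7 were tested (median log2 ratio 0.14), and 7 were called by the selection model in peripheral and 5 in mesenteric nodes, with Rel, Malt1, Traf3 (14 and 13 insertions) and Tank (15 and 11) in both. Among the 27 genes of B cell receptor signalling considered, 11 were tested (median 0.08), and 7 and 3 were called, with Ptprc, Cblb (32 and 22) and Lyn (11 and 10) in both. Of 30 chromatin regulators, 14 were tested (median 0.51, 10 of 14 above 0), and 7 and 3 were called, with Crebbp (28 and 11), Arid1b (23 and 24) and Chd2 (19 and 10) in both and Kmt2c (24 and 6) in peripheral nodes. Death receptor, Bcl2 and p53 genes (2 of 23 tested) and T-lineage genes (5 of 20 tested, median -0.30) held Fas and Tox as their only members called in both groups. Casp8 (3 and 6) and Tcf12 (24 and 20) were called in mesenteric nodes, and Bcl2l11 (4 and 5) was hit in both groups, as were Ccnd3 (6 and 4), Hdac9 (26 and 29), Vav3 (20 and 11), Satb1 (6 and 7) and Skap1 (7 and 3). In tails, where 1.25% of all genes were called, the NF-kB list had 0 calls and B cell receptor signalling 3. Chromatin regulators had 2 calls in tails, the death receptor list 1 and T-lineage genes 2.

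Windows of 10 kb were laid over the chromosomes kept, gene bodies included, and insertions outside genes were not tested apart. Of the windows, 0 of 63 tested (0%) passed (edgeR, smallest adjusted p = 0.538), with 4 at an unadjusted p below 0.05 and 0 calls by DESeq2. Of 80422 positions, 1740 were hit in at least 2 samples, 125 in at least 3 and 18 in at least 4, and 992 were hit in both groups. The most often hit position lay in an intron of Rasa2 (chr9:96548310-96548313), in 5 peripheral and 4 mesenteric nodes with 2 to 14 reads, and in 3 tails. A position in Tnfrsf14 (chr4:154927730-154927733), a receptor of the TNF family on B cells, was hit in 5 node samples and 2 tails, with 4 to 2314 reads. Whether such repeats arose separately or passed between libraries was not tested.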

How the data were processed

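Transposon and genome junctions were amplified from sheared genomic DNA with splinkerette adapters and sequenced on an Illumina MiSeq. The authors deposited a table of insertions with position, strand, sample and a read count per line, on mm10 (GRCm38). The aligner and insertion caller are not given in the sources used here. Counts are reads per insertion as deposited, not normalized; 1 column of per-sample values was not used. Samples were grouped by the tissue label within genotype IMPB. Of 93892 lines in the 15 samples, 90766 lay on autosomes and 7688 of those on the donor chromosome 14, which was left out. Of the autosomal lines, 99.0% lay on a TTAA as deposited, 43 were moved to one within 5 bp, and 820 had none within that distance and were dropped. Lines of 1 sample on the same TTAA were merged, which left 82312 insertions. How the authors filtered faint insertions limits all counts, since the lowest line had 2 reads.

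Insertions were counted per RefSeq gene of GRCm38 and per 10 kb window. Features with at least 10 insertions over the 15 samples were tested with edgeR 4.0.16 (R 4.3.3), quasi-likelihood test, with the insertions of each sample as library size and Benjamini-Hochberg adjustment at 0.05. A value per sample was compared by an exact two-sided permutation test of the difference of means (smallest possible p = 0.0001998), and presence by Fisher's exact test, two-sided. The SE given for an edgeR log2 ratio is its absolute value divided by the square root of the F statistic, not an error fitted directly. Selection within a group used the expectation from TTAA sites. Alternatives included DESeq2 1.42.0. The edgeR fit, the selection model and the permutation test were tried on simulated data, and the other steps were not. Read shares carry PCR error beyond counting. The edgeR, permutation and Fisher tests take the mouse as the unit. The Wald test of the selection model pools the insertions of a group, so its p-values do not measure the spread between mice. Positions shared between libraries were counted but not removed. Values without tail 9 were added after seeing the data.

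The members, gene lists and rules were chosen with earlier results of these data known. Named genes were the 10 with the smallest p in each direction and the 10 with the smallest p under the selection model in each group. Also named were those among the 50 most covered insertions in at least 5 samples and the gene of the most covered insertion of each sample. The 4 most hit members of each list were named as well. A gene that the rule selects is not reported here, and it held the most covered insertion of 3 samples.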

Additional observations from a re-analysis of the deposited data

Results flagged for a closer look

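In 5 of 30 sets of values checked, 1 sample stood far from the rest of its group. The limit used flags about 1 in 20 sets by chance only where values are normally distributed. The sets included sparse insertion rates and read shares, which need not be so distributed. A set without any spread, as for Rasal2 in mesenteric nodes or Ppp2r2b in peripheral nodes, cannot be flagged. The 5 flags therefore cannot be compared with a chance rate, and they only describe the samples named here. The most covered insertion of mesenteric node 2 took 20.1% of its reads, with a gap to the next sample of 0.736 of the range of the group. Rasal2 held 28.7 insertions per 10000 in peripheral node 5 (gap 0.826 of the range), and Ppp2r2b held 12.5 per 10000 in mesenteric node 2 (0.723), so that both genes that passed the test between the groups had a sample of this kind. Fas held 6.49 insertions per 10000 in mesenteric node 6 (0.695), which rests on 1 insertion in the sample with the fewest insertions, 1542. Tox held 56.5 per 10000 in peripheral node 8 (0.693), from 19 insertions. The causes were not tested.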

How the results depend on the processing

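The 2 genes that passed the edgeR test became 0 without a minimum of insertions, 0 with insertions of at least 10 reads and 0 with the 4 named sites. They became 0 with DESeq2 and 0 with presence per sample by Fisher's exact test (23 at an unadjusted p below 0.05). They became 1 with at least 20 insertions and 1 with the 5 samples labelled LN. They ranged from 0 to 3 when each sample was left out in turn: 0 without mesenteric node 1 and 1 without mesenteric node 2 or 5. Without peripheral node 5, Pou2f2 and Ppp2r2b were called. TMM scaling, the name form as a covariate, a fit over all 30 PB tumours, chromosome 14 kept, 10 kb flanks and the omission of the cervical mass each left 2 calls. Windows and genes of the leading insertions stayed at 0 under all alternatives run.

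Genes called by the selection model numbered 164 and 99 (peripheral and mesenteric) with an exact Poisson test and 1106 and 648 with Benjamini-Hochberg adjustment. They numbered 66 and 37 by presence per sample and 139 and 59 with at least 10 reads. Leaving out each sample gave 283 to 389 and 148 to 237, the latter with 148 without mesenteric node 1 and 152 without node 4. The difference in insertions per sample turned to -248 with the 4 named sites and ran from -98.5 to 1483 with each sample left out, and the difference in gene bodies turned to 0.17 points with chromosome 14 kept. Apart from the settings named, causes were not tested. No paired analysis was possible because the replicate numbers only name samples and each sample is a different mouse. Genes with fewer than 10 insertions were not tested, and the median SE of a log2 ratio was 0.80, so that small differences were not detectable at this depth.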

Other observations

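In the other PB tissues, Slamf6 was hit 20 times in 7 of 9 mesenteric masses, 4 times in 2 of 6 spleens and 1 time in 12 tails. Bach2 had 11 insertions in 4 of 9 mesenteric masses and 23 in 5 of 6 spleens, and Ptk2 had 9 in 6 of 9 masses. Gm13481, at 0 in mesenteric nodes, was hit 4 times in 4 mesenteric masses and 15 times in 7 tails. These groups enter none of the comparisons above. Of the 10 leading insertions per sample, 13 of 90 in peripheral and 12 of 60 in mesenteric nodes lay on a position also found in another node sample, and 10 and 4 on a position also found in a tail. Of the 10, 9 came from peripheral node 9, and 1 was left without that sample, while the 4 came from 4 mesenteric nodes. Of the 3 insertions in Fas in tails, 2 were in tail 9.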
